A study of Mus musculus with 9 samples.

Results

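Gene expression in the ileal epithelium was compared between male NOD (non-obese diabetic) mice given antibiotics and control mice at postnatal day 23. The comparison takes in 6 of the 9 libraries of the series, chosen by their description in the labels, with 3 libraries described as 1PAT antibiotics and 3 described as control. NOD mice are an inbred strain prone to spontaneous autoimmune diabetes, and no allele or transgene is named for either group. Both groups shared strain, sex, age, cell type and batch, and they differ by the antibiotic alone as far as the labels go. The drug, its dose and its days are not given in the sources used here. The other 3 libraries came from mice given a transfer of cecal material and entered the estimate of the spread, the scaling and the filter on low counts. Whether each library is a separate animal is not stated, so p-values reflect only how far these libraries differ from each other, which may be technical.

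The ileal epithelium is a single layer of absorptive, goblet and Paneth cells with lymphocytes lodged between them. Its goblet and Paneth cells release lectins and antimicrobial proteins, and its absorptive cells carry antibody into the lumen, sense microbial products and present peptides. The intraepithelial lymphocytes are mostly T cells of a cytotoxic type. A preparation of ileal epithelial cells therefore holds epithelial and lymphocyte RNA, and in such bulk RNA fewer cells of a type and less RNA per cell cannot be told apart. Antibiotics alter the gut bacteria that both cell types respond to.

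Transcripts were counted molecule by molecule with colour-coded probes (nCounter) for 547 endogenous and 14 housekeeping genes of a mouse immunology panel. Total counts were 323129 to 663302 in antibiotic and 417678 to 613925 in control libraries. A count was taken as above background where it exceeded the mean of the library's 8 negative-control probes by more than 2 SD, which put 323 to 446 endogenous genes above the limit in antibiotic and 369 to 449 in control libraries. Levels are given as CPM, the counts of a gene scaled to a common panel total, adjusted by the trimmed mean of M values (TMM), in the order of replicates 1, 2 and 3. Epithelial markers were abundant in both groups, with summed levels of 73082 to 109482 CPM in antibiotic and 83827 to 114876 CPM in control libraries over 7 markers, of which Muc1 was never above the limit. Control replicate 3 was set apart, at -27.5 on the leading principal component (52.5% of the variance) against -7.26 to 11.7 elsewhere. Gene by gene, the antibiotic libraries spanned a median of 0.83 on the log2 scale, with 41 genes above 2, and the control libraries a median of 1.10, with 89 genes above 2. Control replicates 1 and 2 alone spanned a median of 0.44. Synthetic spike-in totals were 29934, 35248 and 19879 counts in antibiotic libraries, against 3437, 7121 and 24369 in control libraries. Scaled to those spike-ins, 462 of 470 genes were lower in antibiotic libraries, with a median log2 fold change of -1.92, so every direction below is relative to the rest of the panel.

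Across the panel, the antibiotic libraries had higher levels of most genes in the lists of T cell, B cell and cytotoxic lymphocyte genes and of the inducible cyclooxygenase Ptgs2. They had lower levels of 18 of 20 interferon response genes and of single genes such as the lectin Itln1, the peptide transporter chain Tap1 and the lipopolysaccharide co-receptor Cd14. No single gene passed the test. Of 470 genes tested 0 (0%) were called at an adjusted p under 0.05 in the quasi-likelihood test of edgeR, with p-values adjusted by Benjamini-Hochberg. The smallest adjusted p was 0.0614, shared by 7 genes, and 30 genes lay under 0.10, of which 20 were higher and 10 lower in antibiotic libraries. Before adjustment 102 genes (21.7%) had a p under 0.05, with 67 higher (14.3%) and 35 lower (7.45%). That split was 45 higher and 70 lower with upper-quartile factors, 77 and 18 with the geometric and 62 and 19 with the arithmetic housekeeping mean as scale, and 0 and 181 with the spike-ins. Every antibiotic library lay above every control library for 85 genes (18.1%) and below every control library for 51 (10.9%). Of the 14 housekeeping genes 12 were lower in antibiotic libraries, with a median log2 fold change of -0.38. They made up 15.37% to 18.14% of the counts in antibiotic libraries and 18.99% to 24.47% in control libraries. The median 95% interval of a single gene reached 1.07 to either side on the log2 scale, so smaller differences could be missed for many genes.

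**Figure D1:**
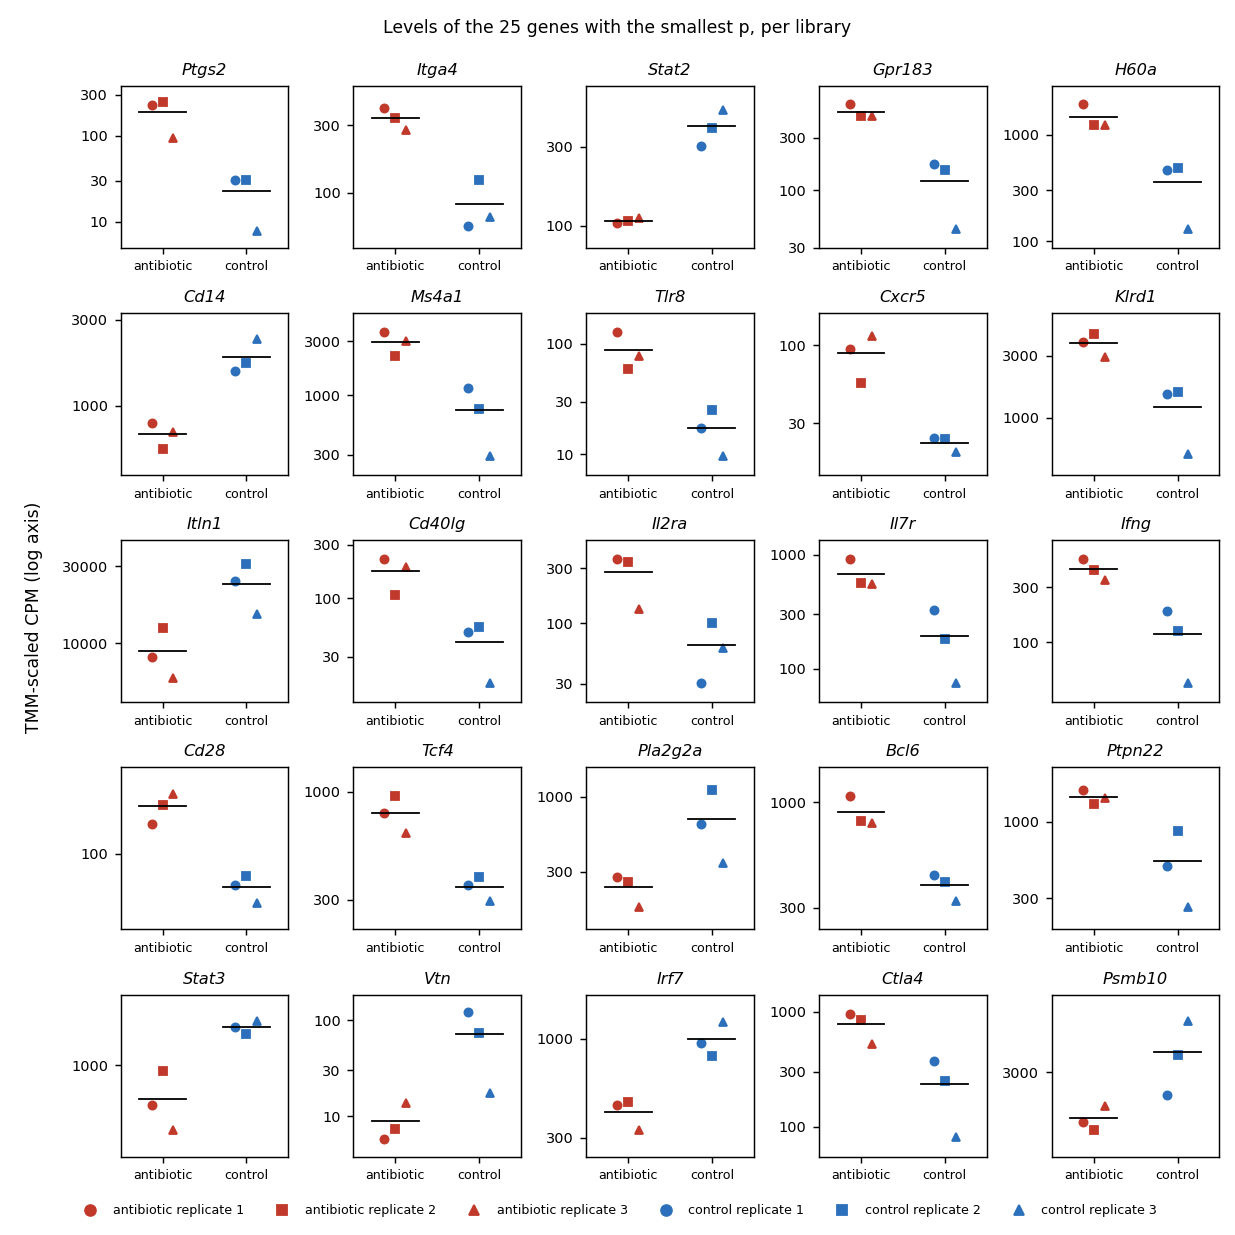
Level of the 25 genes with the smallest p in each antibiotic (red, left) and control (blue, right) library, in TMM-scaled CPM on a log axis; marker shapes give the replicate and black lines the group means. The groups do not overlap in any of the 25 panels, and control replicate 3 holds the lowest control value for many lymphocyte genes, such as Klrd1 at 524.9 and Ms4a1 at 294.2 CPM.

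**Figure D2:**
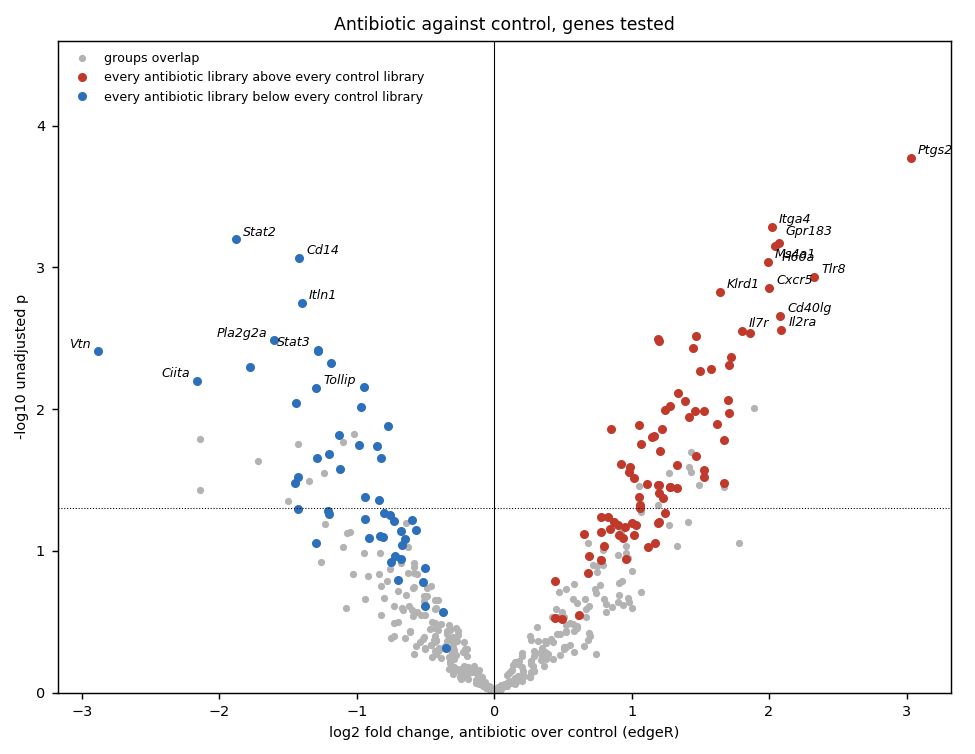
Log2 fold change of antibiotic over control against -log10 of the unadjusted p for the 470 genes tested, with a dotted line at a p of 0.05. Red points (85 genes) have every antibiotic library above every control library, blue points (51) have every one below, and Ptgs2 lies farthest out on the higher side; the fitted fold of Vtn rests on antibiotic counts at background.

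Itln1 and Pla2g2a, both secreted into the lumen, were among the genes with lower levels. Itln1, a lectin of goblet and Paneth cells that binds microbial glycans, measured 8165, 12428 and 6060 CPM in antibiotic libraries, against 24137, 30851 and 15148 CPM in control libraries. The highest antibiotic library lay below the lowest control library, with a log2 fold change of -1.40 ± 0.36 (SE, adjusted p = 0.0759). Pla2g2a, a secreted phospholipase that kills Gram-positive bacteria, measured 273.4, 255.2 and 169.3 CPM in antibiotic libraries, against 642.9, 1121 and 346.1 CPM in control libraries. Its groups did not overlap either, and its log2 fold change was -1.60 ± 0.45 (SE, adjusted p = 0.08). Without control replicate 3, which was the lowest control library for both, both genes passed, Itln1 at -1.69 (adjusted p = 0.00919) and Pla2g2a at -1.98 (adjusted p = 0.0139), among 9 genes called in all (1.91%). Itln1 was 1 of the 2 genes called with spike-in scaling. On that scale the whole panel had a median of -1.92, which moves lower genes further down.

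The transcription factors Stat3 and Xbp1 lay on the same side as these products. Xbp1 maintains the secretory machinery of Paneth, goblet and plasma cells, and it measured 4896, 6662 and 4808 CPM in antibiotic libraries, against 8957, 9847 and 10657 CPM in control libraries, which did not overlap. Its log2 fold change was -0.85 ± 0.31 (SE, adjusted p = 0.142). Stat3, which relays interleukin-22 and interleukin-6 signals in the epithelium, measured 608.4, 924.7 and 446 CPM in antibiotic libraries, against 1603, 1473 and 1729 CPM in control libraries. The 3 control libraries were close to each other, and the log2 fold change was -1.28 ± 0.37 (SE, adjusted p = 0.08). Socs3, the feedback inhibitor of Stat3, overlapped between groups at -1.50 ± 0.68 (log2, SE), and -0.93 without control replicate 3. Those were the 2 members under an unadjusted p of 0.05 among 14 kept genes of gp130 and STAT3 signalling, of which 10 were higher and 4 lower, with a median of 0.16, and 0.25 without control replicate 3.

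Other epithelial genes took different directions. Of 21 kept genes of epithelial barrier and mucosal defence, 8 were higher and 13 lower, with a median log2 fold change of -0.15 (-0.05 without control replicate 3) beside 0.03 for the whole panel. Nos2, the inducible nitric oxide synthase, measured 125.1, 207.1 and 106 CPM in antibiotic libraries, against 199.8, 437.9 and 534.6 CPM in control libraries. Antibiotic replicate 2 overlapped with control replicate 1, and the log2 fold change was -1.43 ± 0.53 (SE, adjusted p = 0.142). Abcb1a, an efflux pump for drugs and other foreign compounds, measured 4825, 4339 and 3105 CPM in antibiotic libraries, against 2144, 2419 and 2257 CPM in control libraries. All antibiotic libraries were above all control libraries, at 0.85 ± 0.30 (log2, SE; adjusted p = 0.133). Ccl20, the epithelial chemokine that attracts CCR6-bearing lymphocytes, was likewise higher without overlap, at 113.6, 151.7 and 49.55 CPM in antibiotic libraries against 39.09, 35.23 and 32.69 CPM in control libraries. The receptor that carries IgA into the lumen, Pigr, measured 59606, 56130 and 50877 CPM in antibiotic libraries, against 47904, 52679 and 70079 CPM in control libraries. Its groups overlapped, and its log2 fold change was -0.03 with a 95% interval of -0.73 to 0.66. Ccl25, the gut-homing chemokine of the small intestine, overlapped as well, with its highest value of 39082 CPM in antibiotic replicate 2.

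A pair of genes chosen after their values were seen had control libraries close together and antibiotic libraries well below them. Btnl2, a butyrophilin-like protein that restrains T cell activation, measured 225.2, 184.9 and 199.6 CPM in antibiotic libraries, against 499.5, 459.7 and 549.9 CPM in control libraries. The gap exceeded the spread within each group, with a log2 fold change of -1.30 ± 0.41 (SE, adjusted p = 0.103). The cytokine Mif measured 8973, 11803 and 8246 CPM in antibiotic libraries, against 15565, 17884 and 15887 CPM in control libraries, or -0.77 ± 0.27 (log2, SE; adjusted p = 0.132). Leaving out control replicate 3 gave -1.28 for Btnl2 and -0.85 for Mif. The 14 housekeeping genes had a median log2 fold change of -0.38 with all libraries.

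Ptgs2 encodes the inducible cyclooxygenase, which makes the precursor of prostaglandins, and had the smallest p of the panel. It measured 227.2, 247.8 and 93.6 CPM in antibiotic libraries, against 30.41, 30.2 and 7.69 CPM in control libraries. The lowest antibiotic library was above the highest control library, and 2 of 3 control libraries exceeded the background limit. Its log2 fold change was 3.03 ± 0.59 (SE, adjusted p = 0.0614), and 2.57 (adjusted p = 0.0231) without control replicate 3. Ptger4, the prostaglandin E2 receptor of lymphocytes and epithelium, lay the other way, at 204.1, 218.2 and 210.6 CPM in antibiotic libraries against 382.2, 305.4 and 361.5 CPM in control libraries. These groups did not overlap, at -0.73 ± 0.36 (log2, SE; adjusted p = 0.249).

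The genes that interferons induce lay mostly lower in antibiotic libraries. Of 20 kept members of the interferon response list 18 were lower and 2 higher. The median log2 fold change of the list was -0.74, and -0.54 without control replicate 3. An unadjusted p under 0.05 on the lower side was found for 9 of the 20, where 7.45% of the panel had one. Stat2, a transcription factor that type I interferon activates, measured 104, 107.3 and 111.5 CPM in antibiotic libraries, against 304.1, 387.6 and 496.1 CPM in control libraries. The antibiotic libraries differed from each other by far less than from the controls, and the log2 fold change was -1.88 ± 0.42 (SE, adjusted p = 0.0614; 0.0389 without control replicate 3). Irf7, the factor that amplifies type I interferon production, measured 444.7, 462.4 and 330.3 CPM in antibiotic libraries, against 944.7, 812 and 1234 CPM in control libraries. Its groups were separate as well, at -1.28 ± 0.37 (log2, SE; adjusted p = 0.08). Irf1, a factor induced by interferon gamma and chosen here after its values were seen, measured 4085, 3481 and 3536 CPM in antibiotic libraries, against 4257, 6584 and 8724 CPM in control libraries.

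Not every interferon-induced gene followed. Cxcl9, a chemokine for activated T cells, did lie lower without overlap. It measured 19.25 to 34.41 CPM in antibiotic libraries, with 1 of 3 above the limit, against 60.81 to 74.99 CPM in control libraries. Its neighbour in function Cxcl10 did not separate the groups, at 130.9, 162.7 and 155.5 CPM in antibiotic libraries against 149.9, 181.2 and 146.1 CPM in control libraries. Its log2 fold change was -0.09 ± 0.36 (SE, adjusted p = 0.888). The 2 higher members were the RNA sensor Ddx58, with overlapping groups at 0.14 ± 0.30 (log2, SE; -0.09 with upper-quartile factors), and Ifitm1. Ifitm1, which blocks viral entry, measured 375.4, 569.6 and 425.3 CPM in antibiotic libraries against 219.4, 290.3 and 51.92 CPM in control libraries. Its log2 fold change of 1.28 was 0.78 without control replicate 3. Cxcl9, Cxcl10, Ddx58 and Ifitm1 were also picked after their values were seen. The receptors and kinases that act above these genes had a median of 0.10 over 13 kept members (-0.04 without control replicate 3), and Ifnar1, a type I interferon receptor chain, had -0.37 ± 0.32 (log2, SE).

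The promoters of an interferon-response pair are shown because the transcription factor complex that contains Stat2 binds a repeated GAAA element. Both are RefSeq windows of 250 bases before to 50 bases after the gene's start, of mouse build GRCm38.p6 and not of the NOD strain, written along the gene's strand, with capitals at each match of GAAANNGAAA on either strand. The Stat2 window at chr10:128270248-128270547 (plus strand) holds 1 match, on the opposite strand, with its upstream end 222 bases before the start.
Stat2: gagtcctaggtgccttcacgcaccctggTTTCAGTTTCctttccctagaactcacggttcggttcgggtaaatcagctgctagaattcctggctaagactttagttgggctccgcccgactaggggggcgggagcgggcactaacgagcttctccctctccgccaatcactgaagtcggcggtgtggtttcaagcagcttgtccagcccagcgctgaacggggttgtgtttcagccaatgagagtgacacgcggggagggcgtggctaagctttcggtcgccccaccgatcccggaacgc
The Irgm1 window at chr11:48871371-48871670 (minus strand) holds 2 overlapping matches that begin 30 bases before the start. Irgm1 encodes an interferon-induced GTPase of autophagy.
Irgm1: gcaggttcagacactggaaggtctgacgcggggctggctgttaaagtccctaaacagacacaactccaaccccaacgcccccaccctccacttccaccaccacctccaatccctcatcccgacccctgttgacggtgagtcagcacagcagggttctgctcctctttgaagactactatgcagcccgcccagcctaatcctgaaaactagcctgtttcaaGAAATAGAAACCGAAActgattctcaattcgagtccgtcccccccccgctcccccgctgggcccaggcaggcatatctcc
The motif occurs in 1131 of 32851 promoter windows (3.44%), counted by window. It occurs in 6 of the 17 interferon response members that have a window (35.3%), counted by gene, namely Bst2, Cxcl10, Ddx58, Ifih1, Irgm1 and Stat2. Those genes did not share a size of difference: Stat2 had a log2 fold change of -1.88 and Irgm1 of -1.10, while Cxcl10 had -0.09 and Ddx58 had 0.14.

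Tap1, Psmb9 and Psmb10, which cut or carry peptides for MHC class I, had lower mean levels in antibiotic libraries. Tap1, a chain of that transporter, measured 152.1, 51.78 and 53.68 CPM in antibiotic libraries, against 228, 233.2 and 434.6 CPM in control libraries. All antibiotic libraries lay under all controls, at -1.78 ± 0.53 (log2, SE; adjusted p = 0.0873). The immunoproteasome subunit Psmb9 measured 1921, 2271 and 1482 CPM in antibiotic libraries, against 2167, 3616 and 5719 CPM in control libraries. Antibiotic replicate 2 overlapped with control replicate 1, and the log2 fold change of -1.02 ± 0.36 (SE) was -0.67 without control replicate 3. Psmb10, another such subunit, measured 1635, 1480 and 1994 CPM in antibiotic libraries, against 2272, 3736 and 5615 CPM in control libraries, with no overlap. Its log2 fold change was -1.19 ± 0.35 (SE, adjusted p = 0.0873). Tap1 and Psmb9 face away from each other, with annotated starts 226 bases apart on chromosome 17, and their shared promoter is shown for that reason. The window of Tap1 at chr17:34187306-34187605 (plus strand, GRCm38.p6, RefSeq) has in capitals the first 10 bases of Psmb9, on the opposite strand, and further on the first 10 bases of Tap1.
Tap1: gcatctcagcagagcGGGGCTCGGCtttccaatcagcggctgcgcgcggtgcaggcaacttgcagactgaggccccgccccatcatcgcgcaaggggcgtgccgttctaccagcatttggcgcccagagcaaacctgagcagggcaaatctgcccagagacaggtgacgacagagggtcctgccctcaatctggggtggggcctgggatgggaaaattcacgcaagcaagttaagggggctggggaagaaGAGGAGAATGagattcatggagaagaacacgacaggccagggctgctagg
It holds no match of GAAANNGAAA. The MHC class I list, which shares Psmb9 and Psmb10 with the interferon response list, had 9 of 11 kept members lower, with a median of -0.41 that depended on single libraries, at -0.18 without control replicate 3, -0.13 without antibiotic replicate 3 and -0.71 without antibiotic replicate 2. B2m, the MHC class I light chain and the most counted transcript, had a log2 fold change of 0.00 ± 0.29 (SE), with 151816, 181395 and 117457 CPM in antibiotic libraries against 114146, 136664 and 198849 CPM in control libraries.

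MHC class II genes took both directions. Ciita, the transactivator of MHC class II genes, measured 136.7, 7.4 and 74.33 CPM in antibiotic libraries, against 188.9, 303.7 and 517.3 CPM in control libraries. Every antibiotic library lay below the controls, antibiotic replicate 2 was at background, and the log2 fold change was -2.16 ± 0.67 (SE, adjusted p = 0.0993). H2-Ab1, a class II beta chain, measured 98.19, 85.07 and 108.7 CPM in antibiotic libraries, against 241.1, 162.7 and 161.5 CPM in control libraries, again without overlap. The invariant chain Cd74 did not follow, with overlapping groups at 0.11 ± 0.29 (log2, SE). The co-stimulatory ligand Cd86 lay higher without overlap, at 277.2, 262.6 and 340 CPM in antibiotic libraries against 171.6, 149.3 and 105.8 CPM in control libraries. Over the 10 kept members 5 were higher and 5 lower, with a median of 0.00, and 0.12 without control replicate 3.

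Bacterial sensing had its clearest difference in Cd14, the co-receptor for lipopolysaccharide. Cd14 measured 806.7, 577 and 717.1 CPM in antibiotic libraries, against 1553, 1723 and 2346 CPM in control libraries. The groups were well apart, at -1.42 ± 0.33 (log2, SE; adjusted p = 0.0614). Tollip, an adaptor that dampens Toll-like receptor signalling, was uniform within groups, at 964.5, 921 and 911.2 CPM in antibiotic libraries against 1881, 1715 and 1811 CPM in control libraries. Its log2 fold change of -0.95 ± 0.30 (SE, adjusted p = 0.103) lay between -0.99 and -0.92 when any single library was left out. Tlr8, an endosomal RNA sensor, lay the other way, at 129, 59.18 and 77.08 CPM in antibiotic libraries against 17.37, 25.17 and 9.61 CPM in control libraries, where 1 of 3 exceeded the limit. Over 19 kept genes of Toll-like and NOD-like sensing 13 were lower and 6 higher, with a median of -0.31 that was -0.11 without control replicate 3. Over 21 kept genes of the NF-kB pathway, which relays these signals, 15 were lower and 6 higher, with a median of -0.26. Nfkb1 was the member of the NF-kB list under an unadjusted p of 0.05, at 190.6, 251.5 and 201 CPM in antibiotic libraries against 453.9, 370.8 and 321.1 CPM in control libraries.

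**Figure D3:**
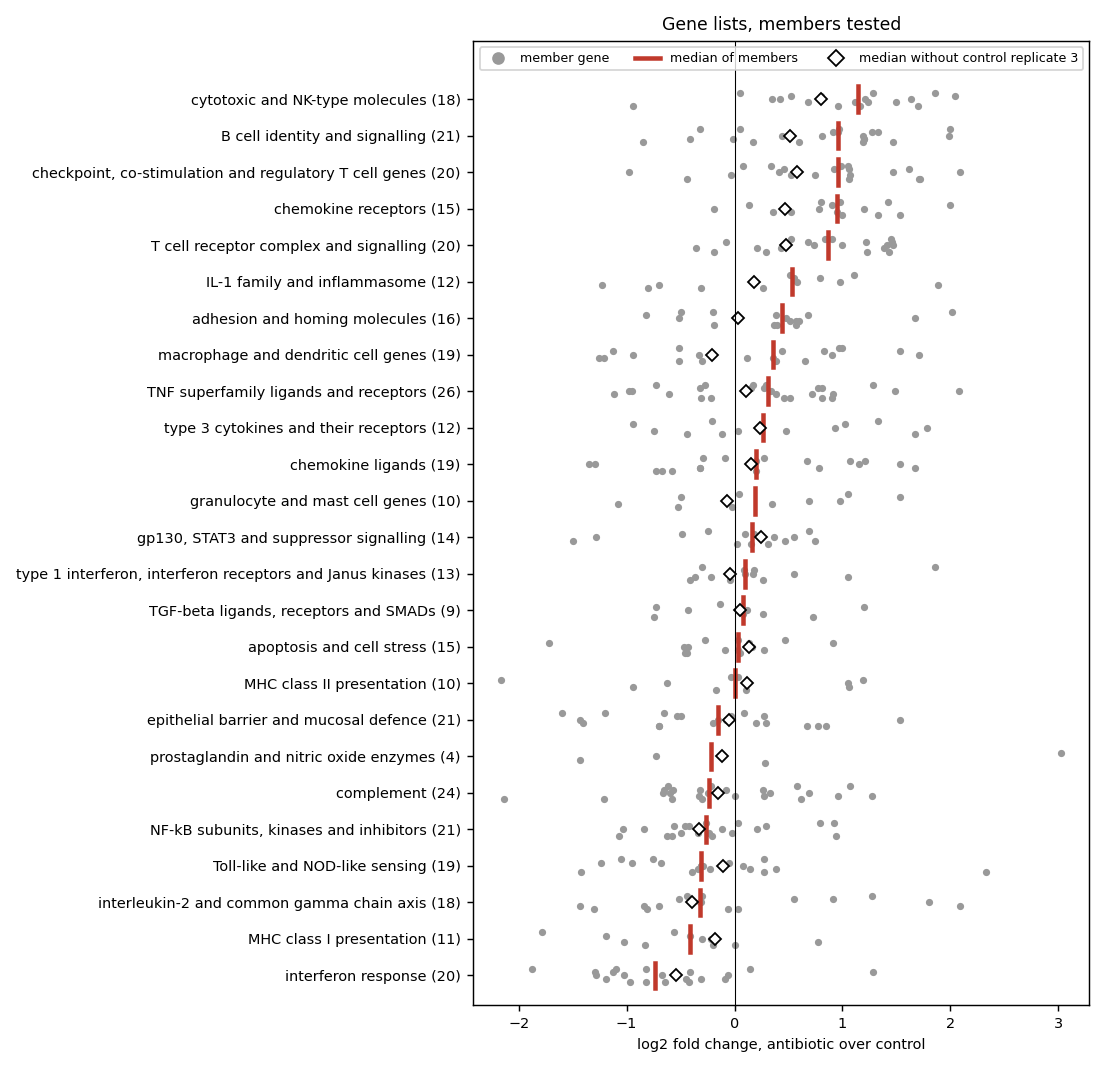
Log2 fold change of antibiotic over control for the kept members (grey points) of each gene list with at least 4 of them, with the number of members in brackets, the median (red bar) and the median without control replicate 3 (open diamond). Medians run from -0.74 for interferon response to 1.14 for cytotoxic and NK-type molecules, and the lymphocyte lists move towards 0 without control replicate 3.

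Lymphocyte genes were higher in antibiotic libraries as groups, in amounts that leaned on control replicate 3. Summed T cell markers measured 29329, 27882 and 26058 CPM in antibiotic libraries, against 22608, 15929 and 4967 CPM in control libraries. B cell markers summed to 7139, 4820 and 6714 CPM in antibiotic libraries, against 3842, 2111 and 780.7 CPM in control libraries. Both sums separated the groups, with control replicate 3 far below the other controls. The T cell sum was mostly Cd3e, with 21572 of 29329 CPM in antibiotic replicate 1, and Cd3e had 0.90 ± 0.45 (log2, SE). Of the kept markers 6 were higher and 1 lower for T cells, and 4 higher and 1 lower for B cells. The lower markers were Cd5 at -0.36 and Cd79a at -0.41 (log2). The median log2 fold change was 1.14 over 18 kept cytotoxic and NK-type genes (17 higher) and 0.96 over 21 B cell genes (17 higher). It was 0.96 over 20 checkpoint, co-stimulation and regulatory T cell genes (17 higher) and 0.87 over 20 genes of the T cell receptor complex (17 higher). Without control replicate 3 these medians were 0.80, 0.51, 0.58 and 0.48, and without control replicate 1 they were 1.45, 1.56, 1.11 and 1.33. With spike-in scaling they were -1.06, -1.36, -1.38 and -1.24, above the median of -1.92 for all genes. An unadjusted p under 0.05 on the higher side was found for 9 of 18, 8 of 21, 10 of 20 and 7 of 20 members, where 14.3% of the panel had one. Foxp3, the factor of regulatory T cells, was not among the kept genes, with 0 antibiotic and 0 control libraries above the limit.

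**Figure D4:**
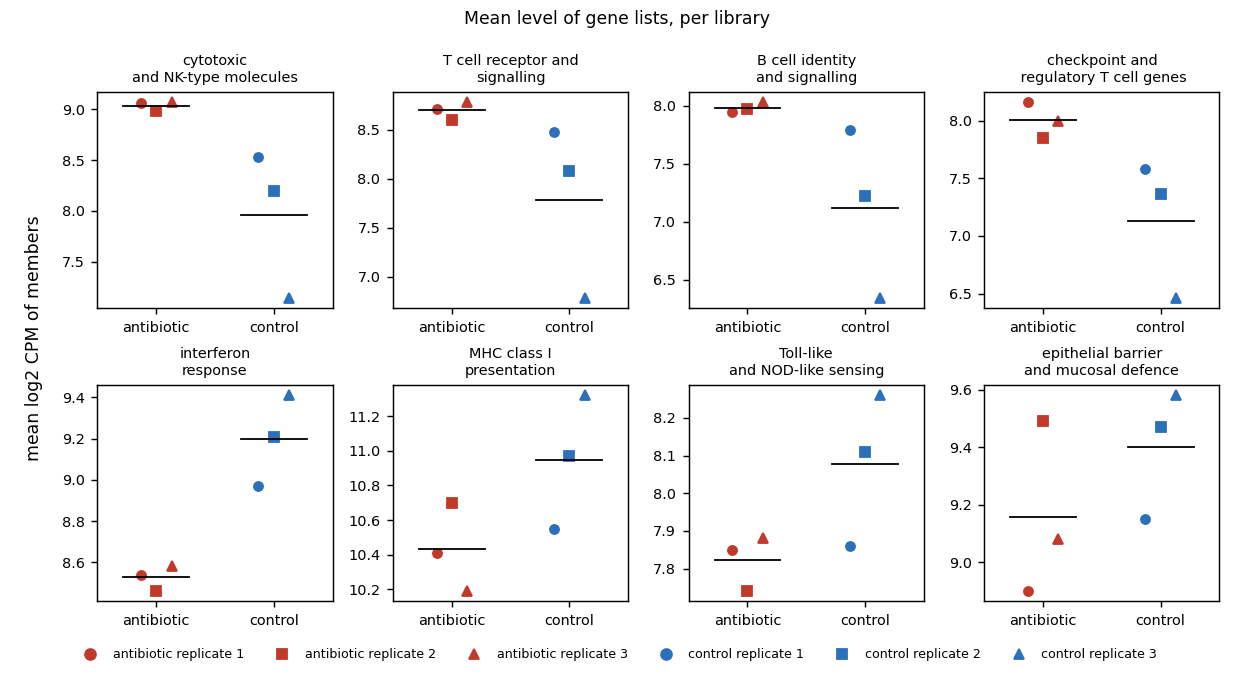
Mean log2 CPM of the kept members of 8 gene lists in each antibiotic (red, left) and control (blue, right) library, with marker shapes for replicates and black lines for group means. The antibiotic libraries lie above every control in the upper 4 lists and below every control for interferon response, and the groups overlap for MHC class I presentation, sensing and epithelial defence.

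Il7r, Cd40lg and Il2ra also separated the groups. Il7r, the interleukin-7 receptor that sustains T cells, measured 910.6, 558.5 and 550.6 CPM in antibiotic libraries, against 325.8, 181.2 and 74.99 CPM in control libraries. No libraries overlapped, and the log2 fold change was 1.80 ± 0.49 (SE, adjusted p = 0.08). Cd40lg, with which helper T cells activate B cells, measured 223.3, 107.3 and 188.6 CPM in antibiotic libraries, against 49.95, 55.37 and 17.31 CPM in control libraries, or 2.08 ± 0.55 (log2, SE; adjusted p = 0.08). Il2ra, the receptor chain that gives high affinity for interleukin-2 to regulatory and activated T cells, measured 358.1, 340.3 and 133.5 CPM in antibiotic libraries, against 30.41, 100.7 and 61.53 CPM in control libraries. Here control replicate 1 was the lowest, and the log2 fold change was 2.09 ± 0.57 (SE), close to its 1.99 without control replicate 3. Of the 18 kept members of the interleukin-2 and common gamma chain list, which include Il7r and Il2ra, 6 were higher and 12 lower, with a median of -0.32.

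Gpr183, Itga4, Bcl6 and Tcf4, which are among the 25 genes with the smallest p, were separate as well. Gpr183, which guides lymphocytes along oxysterol gradients, measured 604.5, 469.8 and 470.7 CPM in antibiotic libraries, against 171.6, 151 and 44.23 CPM in control libraries. Itga4, the integrin chain of gut-homing lymphocytes, measured 400.4, 336.6 and 279.4 CPM in antibiotic libraries, against 58.64, 122.5 and 67.3 CPM in control libraries. Both had an adjusted p of 0.0614, and in both the groups stood apart. The adhesion and homing list that holds Itga4 had 11 of 16 kept members higher, 2 of them under an unadjusted p of 0.05, with a median of 0.44 that was 0.03 without control replicate 3. Bcl6, the master factor of germinal centres, measured 1076, 806.3 and 783.2 CPM in antibiotic libraries, against 436.5, 402.7 and 323 CPM in control libraries. Tcf4, an E-protein factor of B cells and plasmacytoid dendritic cells, measured 783.6, 950.6 and 633.1 CPM in antibiotic libraries, against 354, 385.9 and 296.1 CPM in control libraries. The controls of these last genes were close together, and their log2 fold changes of 1.20 ± 0.33 and 1.19 ± 0.33 (SE, adjusted p = 0.08 each) were both 1.04 without control replicate 3. Chemokine receptors as a group had 14 of 15 kept members higher, with a median of 0.95, and 0.47 without control replicate 3.

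The genes of the cytotoxic and NK-type list did not all separate the groups. H60a, a stress ligand of the activating receptor NKG2D, measured 1962, 1250 and 1244 CPM in antibiotic libraries, against 464.8, 493.3 and 128.8 CPM in control libraries, and Ifng, the effector cytokine, measured 521.7, 425.4 and 344.1 CPM in antibiotic libraries, against 186.8, 124.2 and 44.23 CPM in control libraries. Neither gene overlapped between groups. The granzymes, the proteases of cytotoxic granules, did overlap. Gzma measured 58505, 67223 and 55396 CPM in antibiotic libraries, against 40359, 55617 and 17162 CPM in control libraries, and its log2 fold change of 0.68 was 0.28 without control replicate 3. Gzmb had 0.42 ± 0.38 (log2, SE), and 0.01 without control replicate 3. Prf1, another member of the list, had a log2 fold change of 0.05.

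Secreted signals took both directions. Ccl5, a chemokine of cytotoxic T cells, measured 88236, 114376 and 83336 CPM in antibiotic libraries, against 64357, 54169 and 18102 CPM in control libraries. Xcl1, which attracts cross-presenting dendritic cells, measured 12152, 11803 and 10404 CPM in antibiotic libraries, against 7777, 5451 and 1581 CPM in control libraries. Neither overlapped, and their log2 fold changes of 1.07 ± 0.39 and 1.21 ± 0.46 (SE) were 0.63 and 0.75 without control replicate 3. Over 19 kept chemokine ligands 10 were higher and 9 lower, with a median of 0.20. Il1b, the inflammasome cytokine, measured 275.3, 284.8 and 273.9 CPM in antibiotic libraries, against 184.6, 152.7 and 49.99 CPM in control libraries. Its groups did not overlap, and the log2 fold change of 1.11 ± 0.47 (SE, adjusted p = 0.184) was 0.68 (adjusted p = 0.442) without control replicate 3. Il1r2, the decoy receptor for interleukin-1, was above the limit in 3 antibiotic libraries, at 57, 19 and 17 counts, and in 0 control libraries, at 6, 16 and 7 counts. In CPM its groups overlapped, with 23.4 CPM in antibiotic replicate 3 and 26.84 CPM in control replicate 2. Csf2, the growth factor GM-CSF, overlapped between groups, with 375.4, 140.6 and 313.8 CPM in antibiotic libraries against 158.5, 95.63 and 7.69 CPM in control libraries. Il17f was too near background to place, with 2 antibiotic and 1 control libraries above the limit.

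Receptors and ligands of the TNF superfamily took both directions. Tnfrsf14, the herpesvirus entry mediator on epithelium and lymphocytes, measured 608.4, 503 and 799.7 CPM in antibiotic libraries, against 1227, 1133 and 1409 CPM in control libraries. Its inhibitory partner on lymphocytes, Btla, lay the other way, at 720, 499.3 and 579.5 CPM in antibiotic libraries against 297.5, 214.8 and 38.46 CPM in control libraries. Neither overlapped, with log2 fold changes of -0.98 ± 0.36 and 1.71 ± 0.57 (SE). Tnfsf13b, the B cell survival factor BAFF, measured 254.1, 159.1 and 224.4 CPM in antibiotic libraries, against 267.1, 453 and 667.2 CPM in control libraries. It lay below all controls while B cell genes lay above, with a log2 fold change of -1.12 ± 0.45 (SE, adjusted p = 0.172). Over the 26 kept members of the superfamily 17 were higher and 9 lower, with a median of 0.31, and 0.11 without control replicate 3.

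Markers of most other cell types did not separate the groups. Macrophage markers summed to 55.48 to 108.7 CPM in antibiotic and 94.22 to 178.1 CPM in control libraries over 5 markers, with Cd163 never above the limit. Dendritic cell markers summed to 73.16 to 242.2 CPM in antibiotic and 49.99 to 175.9 CPM in control libraries, and granulocyte markers to 107.3 to 240.9 CPM in antibiotic and 53.84 to 204.1 CPM in control libraries. Xcr1, which defines cross-presenting dendritic cells, was never above the limit. Fibroblast markers overlapped too, at 159.8 to 247.8 CPM in antibiotic and 115.4 to 319.3 CPM in control libraries, with Fn1 never above the limit. Endothelial markers overlapped at 639.9 to 895.2 CPM in antibiotic and 271.1 to 788.4 CPM in control libraries, and Cdh5 was never above the limit. The mast cell pair of Fcer1a and Kit was the exception, with sums of 1171, 1258 and 1028 CPM in antibiotic libraries against 925.2, 827.1 and 315.3 CPM in control libraries. Irf8, a factor of dendritic cells and macrophages, measured 244.5, 166.4 and 298.7 CPM in antibiotic libraries, against 438.7, 506.7 and 613.4 CPM in control libraries, with no overlap. The macrophage and dendritic cell list that holds Irf8 had 11 of 19 kept members higher and 8 lower, with a median of 0.36. That median was -0.21 without control replicate 3. Lilrb4 and Cybb of that list lay higher without overlap, at 1.71 ± 0.51 and 1.53 ± 0.62 (log2, SE). The part of these cell types in any other result was not tested.

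Growth control, apoptosis and complement genes showed little as groups. TGF-beta ligands, receptors and SMADs had 5 of 9 kept members higher, with a median of 0.08, and apoptosis and stress genes had 8 of 15 higher, with a median of 0.03. Without control replicate 3 these medians were 0.05 and 0.13. In the apoptosis list Cdkn1a, the cell cycle inhibitor p21, measured 331.1, 602.9 and 691 CPM in antibiotic libraries, against 247.6, 1567 and 3552 CPM in control libraries. The controls spread widely, and the log2 fold change of -1.72 ± 0.67 (SE) was -0.81 without control replicate 3. Complement genes had 15 of 24 kept members lower, with a median of -0.24, and -0.15 without control replicate 3. Vtn, the adhesive glycoprotein vitronectin that also restrains complement, had 3, 2 and 10 counts in antibiotic libraries, against 56, 44 and 9 counts in control libraries. It exceeded the limit in 0 antibiotic and 3 control libraries, as did C1qa, a macrophage complement chain with 7, 3 and 10 counts in antibiotic and 15, 20 and 13 in control libraries, and Il3, a haematopoietic cytokine with 10, 7 and 12 counts in antibiotic and 25, 21 and 13 in control libraries. No fold is given for these 3 genes, whose antibiotic counts were all at background.

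The count of 0 depended on the tool and on single control libraries. DESeq2 called 51 genes, of which 33 were higher and 18 lower, and limma-voom called 5, all higher. Without control replicate 1 edgeR called 23 genes, without control replicate 3 it called 9, and without antibiotic replicate 3 it called Ptgs2 alone. Ptgs2, Gpr183 and H60a were called in each of 6 settings, namely DESeq2, limma-voom, upper-quartile factors, the filter at 6 libraries, and without control replicate 1 or 3. Stat2 was called in 5 of these 6, and Cd14, Itga4, Itln1 and Ms4a1 in 4. Those 6 are the settings that called 5 or more genes. No gene was called with robust fitting, RLE factors, either housekeeping scale, no filter or background subtraction. The replicate block, the deposited signal and the edgeR fit of the 2 groups alone (smallest adjusted p = 0.139) also called none.

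Ratios of counts within a library do not depend on the scaling between libraries. They were chosen after the data were seen and carry no test.

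**Figure D5:**
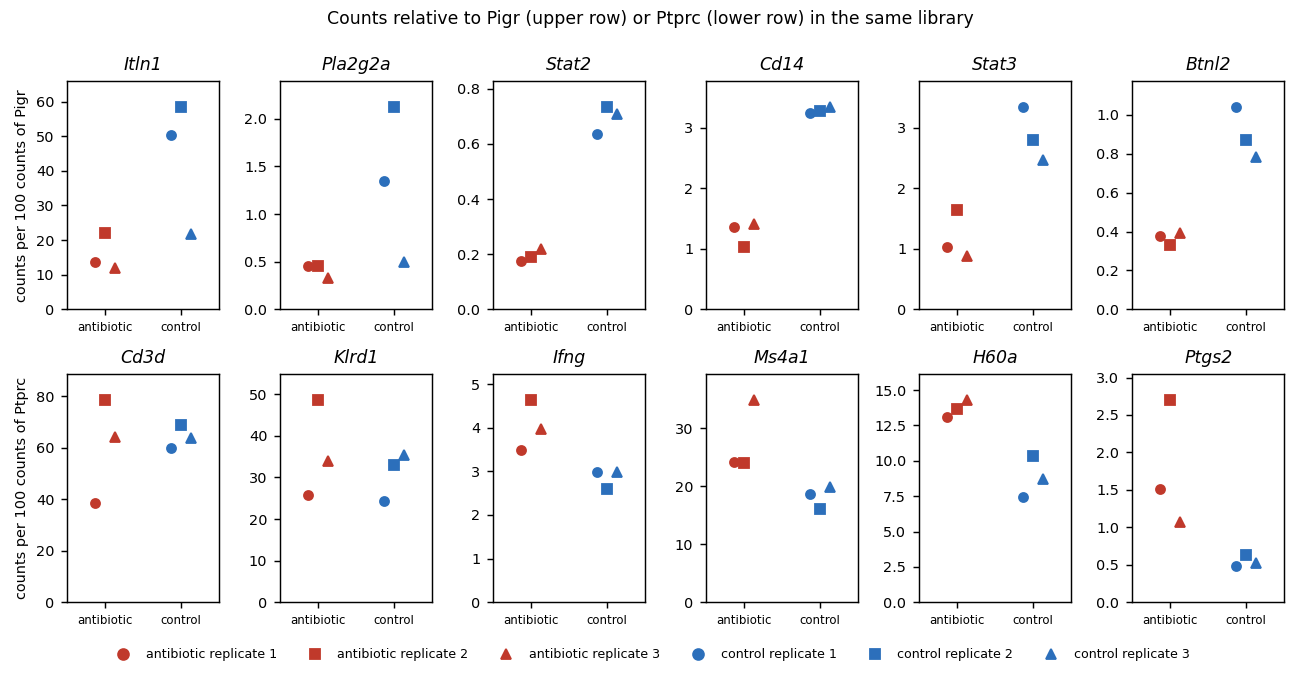
Counts per 100 counts of Pigr (upper panels) or Ptprc (lower panels) in the same library for 12 genes, in antibiotic (red, left) and control (blue, right) libraries, with marker shapes for replicates and axes from 0. Per Pigr count Cd14 stays between 1.03 and 1.41 in antibiotic and between 3.24 and 3.35 in control libraries, while per Ptprc count Cd3d and Klrd1 overlap and H60a does not.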

How the data were processed

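RNA from ileal epithelial cells was extracted with TRIzol and cleaned on RNeasy columns, per the labels' protocols. The deposited files hold whole-number counts per probe for 547 endogenous, 14 housekeeping, 8 negative-control and 6 spike-in probes, classed per the file headers, and the counting software is not given in the sources used here. A deposited table of normalized signal equalled the counts times 1 factor per library, which scaled the housekeeping mean to 7047 (found from the values).

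Genes stayed in the test if above the background limit (2 SD over the mean of the negative controls) in 3 or more of 9 libraries. Of 561 genes 470 were kept (456 endogenous and all 14 housekeeping) and 91 were left out. edgeR 4.0.16 in R 4.3.3 fitted the 9 libraries together (glmQLFit, TMM factors of 0.837 to 1.1, no covariates, 6 residual degrees of freedom, common dispersion 0.174), and the antibiotic minus control contrast was adjusted by Benjamini-Hochberg over the 470 genes at 0.05. An exact test of 3 libraries against 3 cannot go below 0.1, so none was used. Total counts were 323129 to 663302 in the 6 libraries, and the biological coefficient of variation was 41.7%. No duplicate libraries were found: the closest pair of a compared group had a chi-square per degree of freedom of 26.7.

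Named genes were the 25 with the smallest p, up to 4 kept members of each list by smallest p, the 8 endogenous genes with the highest mean CPM, genes above the limit in all libraries of 1 group and none of the other, and markers as levels; others are marked as chosen after their values were seen. A list is described by counts and its median log2 fold change beside the panel's. Lists share members. The members and lists were chosen with earlier results of these data known. Alternatives were DESeq2 1.42.0, limma-voom (limma 3.58.1), robust, upper-quartile, RLE, spike-in and housekeeping scaling, background subtraction, other filters, a fit of the 2 groups alone, the replicate number as a block, limma on log2(signal + 1), and leaving out each library. The procedure was tested on simulated data.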

Additional observations from a re-analysis of the deposited data

How the results depend on the processing

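Of 113 named genes 107 kept their direction under every alternative run, with housekeeping and spike-in values taken relative to the shift of the median of all genes. That shift was 0.31, 0.26 and -1.92 (geometric and arithmetic housekeeping mean, spike-ins). A change of scale moves all genes nearly alike, so after that subtraction these scales could reverse few directions. Without it, spike-in scaling put 462 genes lower and 8 higher, with Gpr183 at -0.21 and H60a at -0.25. The 6 that reversed lay between -0.09 and 0.27. B2m (0.00) had -0.07 with DESeq2 and with RLE factors, -0.26 with upper-quartile factors, -0.01 without a filter, -0.02 with the filter at 6 libraries, -0.05 with the 2 groups alone, and -0.16 to 0.20 when a library was left out. Pigr (-0.03) had 0.00, 0.01 and 0.06 with the geometric mean, arithmetic mean and spike-in scales, 0.00 with background subtracted, 0.22 with the deposited signal and -0.14 to 0.09 when a library was left out. Cd74 (0.11) had -0.11 and Ccl25 (0.27) had -0.03 with upper-quartile factors, and they had -0.07 to 0.20 and -0.41 to 0.56 when a library was left out. Ddx58 (0.14) had -0.09 with upper-quartile factors and -0.02 with the spike-ins. Cxcl10 (-0.09) had 0.15 with the deposited signal and -0.20 to 0.02 when a library was left out. The deposited-signal values of Pigr and Cxcl10 were not taken relative to a shift, and the median of all genes with that signal was 0.27. The count of genes called, 0 by edgeR, was 51 with DESeq2, 5 with limma-voom, 12 with upper-quartile factors, 2 with spike-in scaling, 8 with the filter at 6 libraries, 30 at an adjusted p under 0.10, and 0 to 23 when a library was left out. The 102 genes at an unadjusted p under 0.05 became 181 with spike-in scaling, all lower. The 136 genes without overlap became 154 to 219 when a library was left out, since fewer libraries overlap less often. Of the 520 list medians recomputed 60 moved by more than the spread between libraries, and the cause was not tested. The replicate numbers do not pair the libraries, with correlations of same-numbered deviations of 0.0529, -0.028 and 0.0339, and the fit with the replicate number as a block called 0 genes, with 97 at an unadjusted p under 0.05 and a smallest adjusted p of 0.0922. With 3 libraries a group and a median interval of 1.07 to either side, smaller differences could be missed for many genes. Genes near the background limit of 7.74 to 17.7 counts have few counts behind their values.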

Other observations

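The values in this section are ratios within a library, chosen after the data were seen, with no test. They do not depend on the scaling between libraries. Relative to Ptprc, the pan-leukocyte phosphatase CD45, few kept genes of any kind were higher in antibiotic libraries. Ptprc itself measured 14976, 9162 and 8688 CPM in antibiotic libraries, against 6255, 4767 and 1484 CPM in control libraries. The log2 fold change of Ptprc was 1.39 ± 0.45 (SE), so a gene with equal CPM in both groups has a lower ratio in antibiotic libraries. Cd3d, the T cell receptor chain, had 38.5, 78.7 and 64.4 counts per 100 Ptprc counts in antibiotic libraries, against 59.8, 68.9 and 63.9 in control libraries. Klrd1 overlapped too, at 25.8, 48.7 and 33.8 in antibiotic against 24.3, 32.9 and 35.4 in control libraries. Of 469 kept genes 8 were higher and 225 lower per Ptprc count without overlap. Of 19 genes of the T cell receptor complex 0 were higher and 5 lower. The cytotoxic list had 2 of 18 higher and 4 lower, and the B cell list 1 of 21 higher and 7 lower. The checkpoint list had 1 of 20 higher and 6 lower, and chemokine receptors 0 of 15 higher and 4 lower.

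The 8 genes that were higher per Ptprc count without overlap were H60a, Ptgs2, Ms4a1, Ifng, Il7r, Cd40lg, Gpr183 and the inhibitory receptor gene Btla. H60a had 13.1, 13.7 and 14.3 counts per 100 Ptprc counts in antibiotic libraries, against 7.43, 10.4 and 8.68 in control libraries. Ptgs2 had 1.52, 2.71 and 1.08 in antibiotic against 0.486, 0.634 and 0.518 in control libraries. Ms4a1, which encodes CD20, had 24.1, 24.1 and 35 in antibiotic against 18.8, 16.1 and 19.8 in control libraries, and Ifng had 3.48, 4.64 and 3.96 in antibiotic against 2.99, 2.61 and 2.98 in control libraries. Cd40lg was separate by a small margin, with 1.171 in antibiotic replicate 2 against 1.166 in control replicate 3.

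Relative to Pigr, the antibody transporter of epithelial cells, several genes of the lower side stayed separate. Ratios to Pigr were taken for chosen genes only, most of them from the lower side. How many of all kept genes separate per Pigr count was not counted. Cd14 had 1.35, 1.03 and 1.41 counts per 100 Pigr counts in antibiotic libraries, against 3.24, 3.27 and 3.35 in control libraries; its control libraries measured 1553 to 2346 CPM. Stat2 had 0.174, 0.191 and 0.219 in antibiotic against 0.635, 0.736 and 0.708 in control libraries, and Btnl2 had 0.378, 0.33 and 0.392 in antibiotic against 1.04, 0.873 and 0.785 in control libraries. Psmb9, whose groups overlapped in CPM, was separate per Pigr count, at 3.22, 4.05 and 2.91 in antibiotic against 4.53, 6.86 and 8.16 in control libraries, as was Nos2, at 0.21, 0.369 and 0.208 in antibiotic against 0.417, 0.831 and 0.763 in control libraries. Itln1, by contrast, overlapped, since antibiotic replicate 2 had 22.1 and control replicate 3 had 21.6.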
